A study of Mus musculus with 10 samples.

Results

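The glucocorticoid receptor and 6 of its response genes were followed in lung tumours with and without deletion of the glucose transporter Glut1. The 7 genes were the receptor Nr3c1, the response genes Fkbp5, Tsc22d3, Sgk1 and Zbtb16, and the metallothioneins Mt1 and Mt2. They were chosen by symbol, with earlier results of these data known. Each symbol had 1 row among the 39017 genes counted, and all 7 had enough counts to be tested. The libraries came from C57BL/6 mice carrying p53Fl/Fl (labelled Control) or, in addition, Glut1Fl/Fl (labelled Glut1-KO and written KO for short). The genotype label reads fl/wt, heterozygous, for the controls and fl/fl, homozygous, for the others without naming the locus, whereas the protocol lists no Glut1 allele for the controls. The controls may therefore carry 1 floxed Glut1 copy, and the label and the protocol differ on this. The paper states that its control mice were either wild-type or heterozygous for the floxed Glut1 allele. All received intratracheal Ad5CC10-Cre, so that Cre was expressed under a promoter of CC10-positive airway cells and the p53 deletion was shared by both groups. Tumours were macrodissected 20 weeks and 1 day after initiation, dissociated, and depleted of CD45-positive cells with magnetic beads, and the age of the mice is not given in the sources used here. There were 5 libraries per group. All 5 controls were labelled male, Glut1-KO replicates 1 to 3 female and replicates 4 and 5 male, so that sex and deletion were partly confounded.

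Glucocorticoids are steroid hormones of the adrenal cortex. Their receptor, a transcription factor held in the cytoplasm by chaperones, moves to the nucleus once bound and acts at DNA sites known as glucocorticoid response elements (GRE). Fkbp5 and Tsc22d3 are among its best known targets, and in the lung the hormone drives epithelial maturation and the transport of sodium. Metallothioneins are small cysteine-rich proteins that bind zinc and copper, induced by metals through the factor MTF1, which binds metal response elements (MRE), and also by glucocorticoids and stress.

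Total counts ran from 35.3 to 49.8 M per library (M, mega). Levels are given as counts per M scaled by TMM (CPM), a normalization that corrects for library size and composition. Slc2a1, the deleted gene, stood at 73.2 to 118 CPM in controls. Among libraries labelled KO the female ones had 60.3, 42.5 and 34.6 CPM and the male ones 92.4 and 103 CPM, so that the latter lay inside the control range and the directions given below rest on the labels. The epithelial list (9 genes, among them Epcam, Nkx2-1 and Sftpc) summed to between 25288 and 67965 CPM per library. The leukocyte list (15 symbols, 14 with a row) summed to 33.6 to 38.6 CPM in the controls and to between 40.3 and 73.3 CPM in the libraries labelled KO. The T and B cell genes Cd3e, Cd3d and Ms4a1 were at or near 0, and the B cell gene Cd79a was at 0.72 ± 0.333 and 0.482 ± 0.236 CPM (SD, n = 5 each). Ptprc, which encodes the depletion marker CD45, was at 2.76 ± 0.451 and 7.92 ± 2.19 CPM (SD, n = 5 each), without overlap. Its log2 fold change was 1.47 (SE 0.25, limma adjusted p 0.23), and 1.33 with sex as a covariate. Of the 8 genes tested in this list 7 had a log2 fold change above 0 and Cd79a below, with a median of 0.92 (0.50 with sex as a covariate), and the part of leukocytes in the results was not tested.

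Promoter windows from RefSeq (GRCm38.p6) were matched by symbol for 5 of the 7 genes. The 3 shown belong to Mt1 and Mt2, whose transcripts followed each other across the libraries, and to Sgk1, whose level separated the groups. Each holds the 250 bases before a transcript start, 5′ to 3′ on the plus strand, on which all 3 genes lie. Capitals mark matches to the MRE core (TGCACNC or TGCGCNC) or to a GRE (GNACA, any 3 bases, TGTNC), searched on both strands, and no matches overlap. The Sgk1 start used lies inside the annotated gene, at one of its internal transcript starts, and the third Mt2 match is on the minus strand.
Mt1, chr8:94178839-94179088: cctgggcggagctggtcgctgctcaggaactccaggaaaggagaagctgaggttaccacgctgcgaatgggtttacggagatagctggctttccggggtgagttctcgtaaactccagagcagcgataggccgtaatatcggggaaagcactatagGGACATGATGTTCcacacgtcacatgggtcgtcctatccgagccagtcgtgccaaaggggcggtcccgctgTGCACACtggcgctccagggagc
Mt2, chr8:94172368-94172617: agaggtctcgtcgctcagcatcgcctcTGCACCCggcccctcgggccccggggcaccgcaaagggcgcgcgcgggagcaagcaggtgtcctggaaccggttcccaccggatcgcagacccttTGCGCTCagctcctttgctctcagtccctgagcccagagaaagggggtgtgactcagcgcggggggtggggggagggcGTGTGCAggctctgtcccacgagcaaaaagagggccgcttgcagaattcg
Sgk1, chr10:21993640-21993889: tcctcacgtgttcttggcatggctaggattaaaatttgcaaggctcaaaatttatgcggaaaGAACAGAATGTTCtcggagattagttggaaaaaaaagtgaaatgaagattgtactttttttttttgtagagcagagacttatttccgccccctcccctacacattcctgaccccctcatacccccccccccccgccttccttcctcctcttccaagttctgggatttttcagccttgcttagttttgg

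With the start site as position 0, Mt1 held a GRE match at -94 and an MRE core at -23, and a further 2 cores lay at 2 and 20, in the 50 bases after the start that are not printed. Mt2 held MRE cores at -223, -128 and -50 and another at 4, and no GRE match. The RefSeq start used for Mt2, 94172618, lies before the start of the annotated gene at 94172664, so all 4 cores lie before that gene. Of 32851 windows of 300 bases in the table, 25.7% held at least 1 MRE core, 1.97% at least 3 and 0.517% at least 4. The Sgk1 window shown, 1 of 6 listed for that gene, held a GRE match at -188, with the letters GAACAGAATGTTC. A GRE match was present in 0.475% of all windows, a share per window, whereas 6 windows were searched for Sgk1. The other 5 Sgk1 windows, the 3 of Tsc22d3 and the 1 of Fkbp5 held no GRE match, which says only that these letters are not in these stretches. These matches are descriptions of sequence and not measurements of binding.

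Across the 7 genes the response did not take 1 direction. Sgk1 was lower in every library labelled Glut1-KO than in any control, Fkbp5, Nr3c1 and Zbtb16 had higher means in the libraries labelled KO, and Tsc22d3, Mt1 and Mt2 had nearly equal means. The limma test called 0 of the 7, and 0 of all 15922 genes tested (0%) in either direction. At an unadjusted p under 0.05 there were 3 of the 7, Sgk1, Fkbp5 and Nr3c1, beside 1223 of all genes (7.68%). The groups did not overlap for 1 of the 7, beside 1.85% of all genes (0.798% higher, 1.06% lower). In tissue fractions, fewer cells of a type and less RNA per cell cannot be told apart, and since no label says that the libraries came from separate animals (their deposited names share 2 numbers among controls and 4 among the others, and both male Glut1-KO libraries carry the same number), the p-values measure the spread between libraries.

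**Figure D1:**
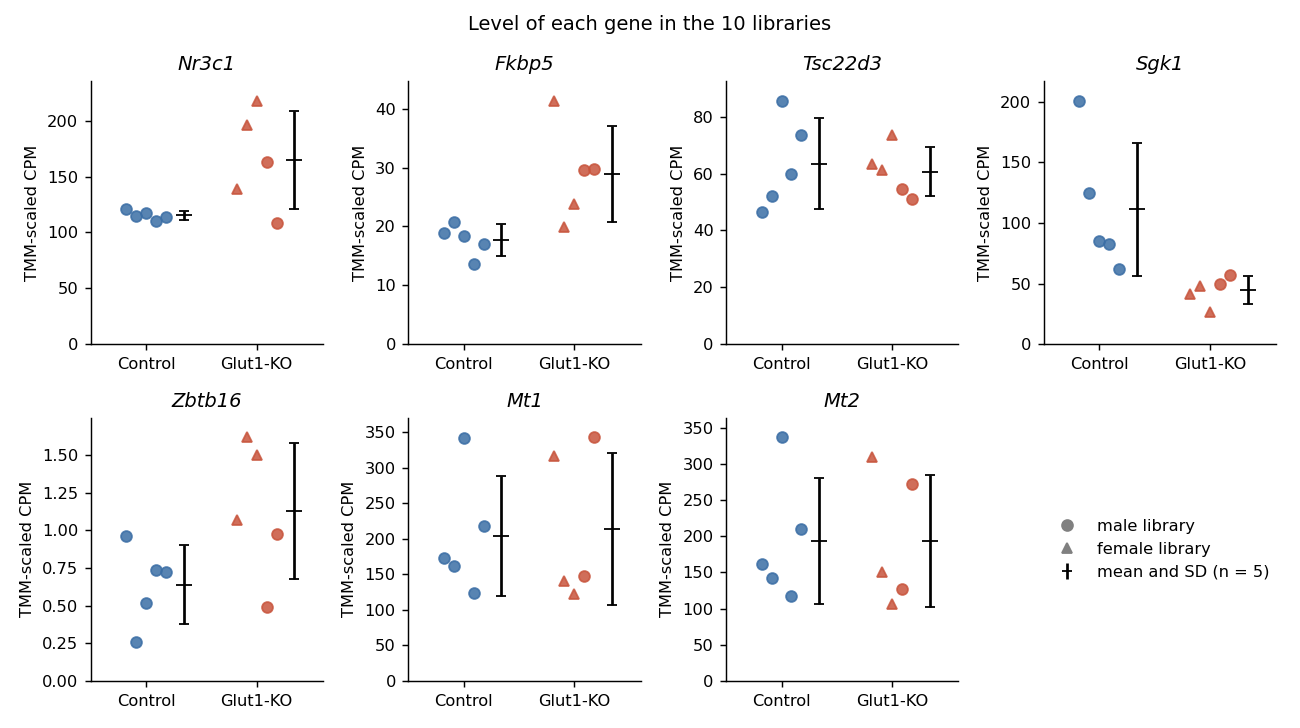
Level of each of the 7 genes (TMM-scaled CPM, linear axes from 0) in the 5 Control and 5 Glut1-KO libraries, in replicate order within each group, circles for male and triangles for female libraries; the bar gives the mean and SD. The Sgk1 points of the Glut1-KO libraries, at 26.7 to 57 CPM, all lie below the lowest control at 62.1 CPM, whereas the Mt1 and Mt2 points of the groups overlap over most of their ranges.

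Nr3c1 encodes the receptor itself. It lies on chromosome 18 from 39410545 to 39519421, minus strand (GRCm38, as for all genes below). It stood at 121, 115, 117, 110 and 114 CPM in control replicates 1 to 5, a narrow band. In Glut1-KO replicates 1 to 5 it stood at 139, 196, 218, 163 and 108 CPM. Of these, 4 lay above every control and replicate 5 lay below every control. The means were 115 ± 4.21 CPM in the controls against 165 ± 43.9 CPM in libraries labelled KO (SD, n = 5 in either group), and the log2 fold change was 0.47 (SE 0.17, 95% interval 0.09 to 0.85). The limma adjusted p was 0.566 and the 2-sided exact permutation p 0.0476. The female libraries averaged 184 ± 41 CPM (SD, n = 3) and the 2 male ones 136 CPM. With sex as a covariate the log2 fold change was 0.20. That estimate rests on the 2 male Glut1-KO libraries, whose Slc2a1 levels of 92.4 and 103 CPM lay inside the control range. The part of sex in the Nr3c1 difference cannot be told apart from that of the deletion.

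Fkbp5 encodes a co-chaperone that lowers the receptor's affinity for hormone, and its induction by the receptor forms a feedback loop. It lies on chromosome 17 from 28399094 to 28517527, minus strand. Control replicates 1 to 5 had 18.9, 20.8, 18.3, 13.6 and 17 CPM. Glut1-KO replicates 1 to 5 had 41.4, 19.9, 23.8, 29.6 and 29.8 CPM. Only replicate 2 fell inside the control range, and replicate 1 was the highest. The means were 17.7 ± 2.66 and 28.9 ± 8.15 CPM (SD, n = 5 each), and the log2 fold change was 0.66 (SE 0.20, 95% interval 0.21 to 1.11, limma adjusted p 0.454, exact permutation p 0.0159). Both male libraries labelled KO lay above all 5 male controls, with an exact permutation p of 0.0952. This is the smallest that 21 assignments allow in a 2-sided test, though these 2 libraries share a number in their names and may come from 1 animal. Their Slc2a1 levels, 92.4 and 103 CPM, lay inside the control range. With sex as a covariate the Fkbp5 log2 fold change was 0.75, an estimate that rests on the same 2 libraries.

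Tsc22d3 encodes GILZ, a leucine zipper protein that carries part of the anti-inflammatory action of glucocorticoids. It lies on chromosome X from 140539528 to 140600659, minus strand. Control replicates 1 to 5 had 46.5, 52.2, 85.7, 59.7 and 73.6 CPM. Glut1-KO replicates 1 to 5 had 63.3, 61.2, 73.5, 54.6 and 51 CPM. Every Glut1-KO value lay inside the control range. The means were 63.5 ± 16 and 60.7 ± 8.7 CPM (SD, n = 5 each), and the log2 fold change was -0.04 (SE 0.18, limma adjusted p 0.974, exact permutation p 0.865). The 95% interval of -0.43 to 0.35 leaves room for a moderate change in either direction.

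Sgk1 encodes a kinase that keeps the epithelial sodium channel at the cell surface by restraining the ubiquitin ligase Nedd4l. Besides steroids, it is induced by serum and by osmotic and mechanical stress. It lies on chromosome 10 from 21882184 to 21999903, plus strand, with 13 annotated transcripts. Control replicates 1 to 5 had 201, 125, 84.9, 82.9 and 62.1 CPM. Glut1-KO replicates 1 to 5 had 41.4, 47.9, 26.7, 49.4 and 57 CPM. All 5 libraries labelled KO lay below all 5 controls, a pattern seen in 1.06% of all genes tested in this direction. The means were 111 ± 55.1 and 44.5 ± 11.4 CPM (SD, n = 5 each). The log2 fold change was -1.24 (SE 0.31, 95% interval -1.93 to -0.56), with a limma adjusted p of 0.369, over the threshold of 0.05. The exact permutation p was 0.00794, the smallest that 252 assignments allow. DESeq2, an alternative test, placed Sgk1 past the threshold (log2 fold change -1.32, adjusted p 0.00941). It called 0.659% of all genes lower, 0.691% higher and 1.35% in all. With edgeR's quasi-likelihood test, a further alternative, Sgk1 was not called (adjusted p 0.294).

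Female and male libraries labelled KO both lay below the male controls for Sgk1. The female libraries averaged 38.7 ± 10.9 CPM (SD, n = 3) and the male ones 53.2 CPM (n = 2). Among male libraries alone the log2 fold change was -0.94 (SE 0.43), with an exact permutation p of 0.0952. That is again the smallest that 21 assignments allow and again with 2 male libraries that share a number. The Slc2a1 levels of these 2 libraries, 92.4 and 103 CPM, lay inside the control range. The Sgk1 level of the controls themselves differed 3.24-fold between replicates 1 and 5. Without control replicate 1, the highest library, the direction was the same and the limma adjusted p was 0.433. A list of 16 early genes that respond to tissue dissociation was read beside Sgk1. Of its genes 15 had a log2 fold change below 0 and 1 above, with a median of -0.29 (-0.62 with sex as a covariate), and 0 were called with limma. At an unadjusted p under 0.05, 5 of the 16 were lower, beside 4.02% of all genes, and 2 of the 16 were lower without overlap, beside 1.06%. DESeq2 called 3 of the 16, beside 1.35% of all genes, the transcription factors Atf3 and Jun and the early response gene Ier3, with limma log2 fold changes of -0.94 (SE 0.17), -0.74 (SE 0.19) and -0.80 (SE 0.20). The list's summed level was 6378 to 8734 CPM in the controls against 4417 to 6893 CPM in the libraries labelled KO. By library, control replicates 1 to 5 summed to 7405, 6378, 8734, 6993 and 7786 CPM of these genes. The sums in Glut1-KO replicates 1 to 5 were 6260, 6700, 6893, 4956 and 4417 CPM. The part of dissociation in the Sgk1 difference was not tested, nor was that of leukocytes or airway cells. Leukocyte, club cell and ciliated cell markers had median log2 fold changes of 0.92, -0.67 and -0.94, with 0 called by limma.

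Zbtb16 encodes PLZF, a zinc finger transcription factor known to be induced by glucocorticoids. It lies on chromosome 9 from 48654297 to 48836222, minus strand. It was scarce, with 14 to 68 counts per library, and 14 counts carry an exact 95% Poisson interval of 7.65 to 23.5 for counting error only. Control replicates 1 to 5 had 0.962, 0.26, 0.519, 0.738 and 0.723 CPM. Glut1-KO replicates 1 to 5 had 1.07, 1.62, 1.5, 0.491 and 0.974 CPM. All 3 female libraries lay above every control, male replicate 5 lay barely above the highest control, and male replicate 4 lay within their range. The means were 0.64 ± 0.264 and 1.13 ± 0.451 CPM (SD, n = 5 each), and the log2 fold change was 0.87 (SE 0.43, 95% interval -0.08 to 1.81, limma adjusted p 0.677, exact permutation p 0.0952). Without control replicate 2, the lowest library, the log2 fold change was 0.56, and with sex as a covariate it was 0.29.

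Mt1 and Mt2 are neighbours on chromosome 8, on the plus strand. Mt2 runs from 94172664 to 94173568 and Mt1 from 94179082 to 94180327, with 5513 bases between them. No stretch of 85 bases, the read length, was shared between the annotated transcripts of either gene and those of any other gene. An exon of Mt2 overlaps the antisense gene Gm45774, which had 0 rows in the count table. How the counting used strand is not given in the sources used here. Mt1 stood at 173, 162, 342, 124 and 218 CPM in control replicates 1 to 5. In Glut1-KO replicates 1 to 5 it stood at 317, 140, 122, 147 and 343 CPM. High libraries occurred in both groups, control replicate 3 and Glut1-KO replicates 1 and 5. Mt2 followed with 161, 143, 337, 118 and 210 CPM in the controls. In Glut1-KO replicates 1 to 5 it had 309, 150, 107, 127 and 272 CPM. The same 3 libraries were the highest.

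Neither metallothionein separated the groups. For Mt1 the means were 204 ± 84.1 CPM in the controls against 214 ± 107 CPM in libraries labelled KO (SD, n = 5 in either group), and the log2 fold change was 0.01 (SE 0.35, 95% interval -0.76 to 0.78, limma adjusted p 0.994, exact permutation p 0.968). For Mt2 they were 194 ± 86.7 and 193 ± 91.6 CPM (SD, n = 5 each), and the log2 fold change was -0.04 (SE 0.35, 95% interval -0.81 to 0.74, limma adjusted p 0.987, exact permutation p 0.921). These intervals are wide, as the libraries of 1 group differed widely. Within a group Mt1 varied 2.76-fold in controls and 2.8-fold in the libraries labelled KO, and its SD on the log2 scale within groups, 0.63, was larger than that of 75% of all genes tested.

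The ratio of Mt1 to Mt2 counts was far steadier than either level. It ran from 0.937 in Glut1-KO replicate 2 to 1.26 in Glut1-KO replicate 5, and from 1.02 to 1.14 in controls. On the log2 scale the ratio averaged 0.09 ± 0.06 in controls and 0.14 ± 0.17 in the libraries labelled KO (SD, n = 5 each, exact permutation p 0.579). Over the 10 libraries the log2 levels of the pair had a Pearson r of 0.98 and a Spearman rho of 0.93, and r stayed at 0.98 after the group means were removed, and also without the 2 libraries farthest from the Mt1 median. The libraries share scaling and handling, so these values describe the pair and carry no test. Among the 21 pairs of the 7 genes the next highest r was 0.55, for Nr3c1 with Zbtb16, which became -0.05 without the 2 farthest libraries. The lowest was -0.67, for Nr3c1 with Sgk1, which became -0.30 with the group means removed. After that removal the lowest was -0.85, for Tsc22d3 with Sgk1. The highest besides Mt1 with Mt2 was then 0.63, for Fkbp5 with Mt1. With the group means kept these 2 pairs had -0.46 and 0.42.

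**Figure D2:**
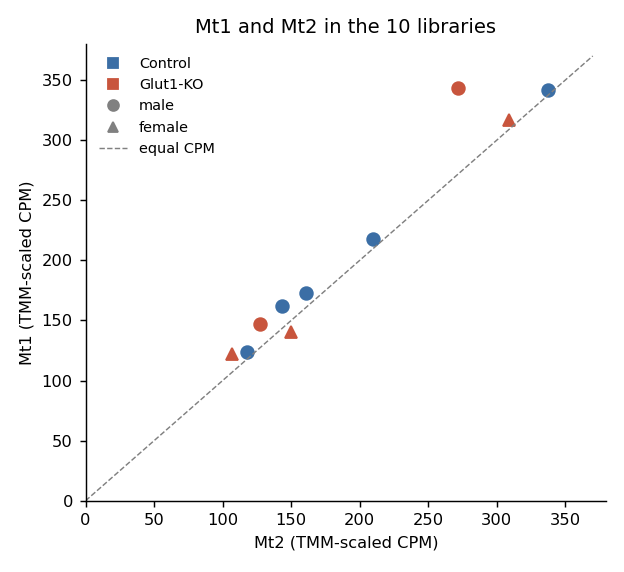
Mt1 against Mt2 (TMM-scaled CPM, linear axes from 0) in the 10 libraries, blue for Control and red for Glut1-KO, circles for male and triangles for female libraries; the dashed line marks equal CPM. The points follow the line from about 107 to 337 CPM of Mt2, with libraries of both groups at either end.

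Levels of different genes were compared per length, as CPM per kb of the principal annotated transcript. In controls the order was Mt2 (379 ± 170), Mt1 (371 ± 153), Sgk1 (45.3 ± 22.4), Tsc22d3 (32.2 ± 8.11), Nr3c1 (17.9 ± 0.654), Fkbp5 (4.59 ± 0.689) and Zbtb16 (0.125 ± 0.0517 CPM per kb, SD, n = 5). Mt2 and Mt1 did not differ beyond their spread, nor did Sgk1 and Tsc22d3, whereas every other step down this order was free of overlap between libraries. In the libraries labelled KO, Sgk1 stood below both Tsc22d3 and Nr3c1, at 18.1 ± 4.64 CPM per kb beside 30.8 ± 4.41 for Tsc22d3 and 25.6 ± 6.82 for Nr3c1 (SD, n = 5). There the ranges of Sgk1 and Nr3c1 overlapped, and so did those of Nr3c1 and Tsc22d3, but every library had less Sgk1 than the lowest Tsc22d3 value of 25.8 CPM per kb.

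**Figure D3:**
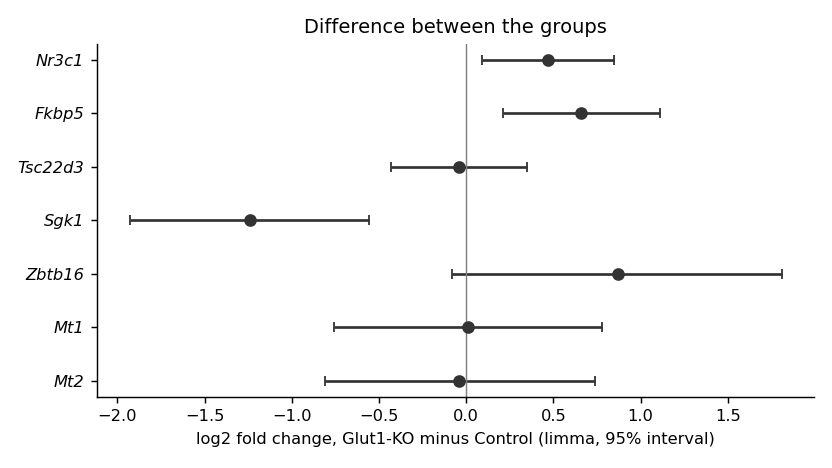
Log2 fold change of each gene, Glut1-KO minus Control, from limma over 10 libraries, with the 95% interval as bars and a vertical line at 0. The intervals of Nr3c1 and Fkbp5 lie above 0 and that of Sgk1 below it before adjustment over all genes, and those of the other 4 genes include 0.

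A list of 22 further genes known as glucocorticoid targets was read beside the 7. All 22 were tested, 9 had a log2 fold change above 0 and 13 below, and 0 were called with limma. The median was -0.07 (-0.18 with sex as a covariate), and that over all genes tested lay at 0 after rounding. At an unadjusted p under 0.05 there was 1 gene higher and there were 4 lower, beside 3.66% and 4.02% of all genes. The 3 genes with the smallest p were all lower. Nfkbia, the inhibitor of NF-kB, stood at 107 ± 14.6 CPM in the controls against 69.7 ± 11.2 CPM in libraries labelled KO (SD, n = 5 in either group), without overlap, with a log2 fold change of -0.62 (SE 0.13, limma adjusted p 0.314). DESeq2 called it (adjusted p 0.00842). Ddit4, an inhibitor of the kinase mTOR, had 102 ± 21.6 and 70.9 ± 17.6 CPM (SD, n = 5 each), and the log2 fold change was -0.54 (SE 0.19, limma adjusted p 0.555), but -0.19 with sex as a covariate. Dusp1, a phosphatase of MAP kinases, had 387 ± 28.2 and 275 ± 79.3 CPM (SD, n = 5 each), without overlap, a log2 fold change of -0.55 (SE 0.20, limma adjusted p 0.556). DESeq2 did not call Dusp1 (adjusted p 0.307). With sex as a covariate the Dusp1 fold change was -1.03, with a limma adjusted p of 0.0422, in a fit that called 0.00628% of all genes higher, 0.0126% lower and 0.0188% in all. That estimate rests on the 2 male Glut1-KO libraries that share a number in their names. Their Slc2a1 levels, 92.4 and 103 CPM, lay inside the control range. With male libraries only the Dusp1 value was -1.04 and 0 of the 22 targets were called. Nfkbia and Dusp1 also answer to inflammatory and stress signals. The targets Per1, a clock gene, and Klf9, a zinc finger repressor, had log2 fold changes of 0.15 (SE 0.25, but -0.38 with sex as a covariate) and -0.02 (SE 0.13, -0.11 with sex as a covariate).

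The receptor's partners were described in the same way. Of 14 chaperones and cofactors, all tested, 4 had a log2 fold change above 0 and 10 below, the median was -0.09 (-0.04 with sex as a covariate), the range -0.27 to 0.28, and 0 were called. The corepressor Ncor1 had a log2 fold change of -0.12 (SE 0.09, limma adjusted p 0.767), and the coactivator Crebbp had -0.21 (SE 0.17, limma adjusted p 0.784). With sex as a covariate these were -0.20 and -0.58. The main chaperone Hsp90ab1 stood at 3491 CPM in the controls against 3383 CPM in the libraries labelled KO. Genes of local steroid handling were measured too. Hsd11b1, which regenerates active hormone, was scarce at 1.86 ± 0.661 and 2.66 ± 1.74 CPM (SD, n = 5 each), and its log2 fold change of 0.35 (SE 0.47) turned to -0.58 with sex as a covariate. Hsd11b2, which inactivates it, stood at 15.8 ± 6.31 and 17.9 ± 6.39 CPM (SD, n = 5 each), and H6pd, which supplies the cofactor of Hsd11b1, at 304 ± 48.2 and 327 ± 35 CPM (SD, n = 5 each). The mineralocorticoid receptor Nr3c2, which binds the same hormones, had a log2 fold change of 0.04 (SE 0.16, 0.29 with sex as a covariate). Of these 4 genes 0 were called, and their median log2 fold change was 0.16.

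Downstream and beside Sgk1, 10 genes of its family, regulators and substrates were read, with 7 above 0, 3 below and a median of 0.11 (0.01 with sex as a covariate). None of these 10 was called with limma (the count at an unadjusted p under 0.05 was 0 as well, and DESeq2 and edgeR called 0). Sgk3, a paralogue, had 5.3 ± 2.35 and 7.42 ± 1.85 CPM (SD, n = 5 each), and the log2 fold change was 0.67 (SE 0.38, 0.40 with sex as a covariate). Ndrg1, a substrate of the kinase that is also induced by hypoxia, had 187 ± 43 and 304 ± 170 CPM (SD, n = 5 each), and the log2 fold change was 0.55 (SE 0.35, 1.41 with sex as a covariate). Rictor, a subunit of the complex that activates SGK1, had a log2 fold change of -0.13 (SE 0.13), and for Nedd4l it was 0.03 (SE 0.15). With sex as a covariate these were -0.08 and -0.27.

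Around the metallothioneins, 27 genes of zinc handling were listed and 19 were tested, 11 above 0 and 8 below, with a median of 0.08 (0.01 with sex as a covariate) and 0 called with limma. The brain and skin metallothioneins Mt3 and Mt4 were not among those tested, with group means of at most 0.0597 CPM for Mt3 and 0 CPM for Mt4. Mtf1 had a log2 fold change of -0.20 (SE 0.12), and its target Slc30a1, a zinc exporter, 0.35 (SE 0.18), but with sex as a covariate these were -0.08 and 0.01. The zinc importers Slc39a1 and Slc39a10 had the smallest p of the list. Slc39a1 stood at 96.3 ± 19.4 and 138 ± 23.9 CPM (SD, n = 5 each), and the log2 fold change was 0.53 (SE 0.17, limma adjusted p 0.482). Slc39a10 stood at 134 ± 17.3 and 188 ± 41.6 CPM (SD, n = 5 each), and the log2 fold change was 0.47 (SE 0.16, limma adjusted p 0.531), and 0.29 with sex as a covariate. Slc39a3, the third by p, had a log2 fold change of -0.29 (SE 0.15).

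**Figure D4:**
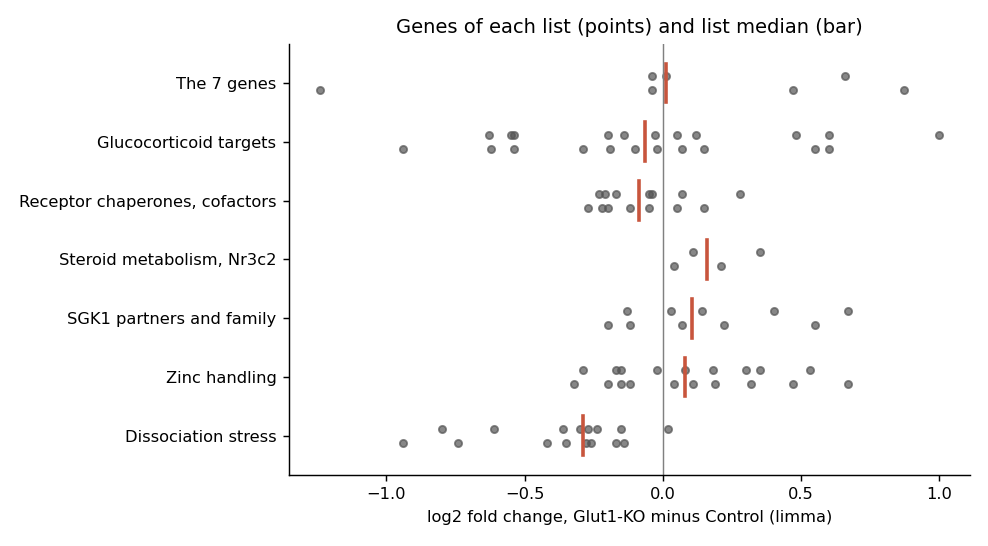
Log2 fold change, Glut1-KO minus Control (limma), of every tested gene (points) in the 7 genes and in each of 6 further lists, with the list median as a bar; points are offset vertically for legibility only. The medians run from -0.29 for dissociation stress to 0.16 for steroid metabolism, and the 7 genes spread from -1.24 to 0.87.

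Genes whose log2 levels were most like those of each member over the 10 libraries were listed by Pearson r, as a description, since the highest of many were taken. For Nr3c1 they were Mccc1 (r 0.96), an enzyme of leucine breakdown, Rcor3 (0.95), a corepressor, and Trak2 (0.95), an adaptor of mitochondrial transport. For Fkbp5 they were Gm17305 (0.94), Ndufv2 (0.91), a subunit of respiratory complex I, and Mapk13 (0.91), a p38 kinase. For Tsc22d3 they were Anxa6 (0.95), Gm11696 (0.93) and Msrb2 (0.93). For Sgk1 they were the transcription factor Foxk2 (0.98), the RNA methyltransferase Nsun2 (0.96) and the RNA helicase Ddx50 (0.95), and their own log2 fold changes, -0.23, -0.40 and -0.21, were smaller than that of Sgk1. For Zbtb16 they were Tifa (0.92), Tfcp2l1 (0.90) and Rasgef1a (0.89). After Mt2, the genes most like Mt1 were the mechanosensitive channel Piezo1 (0.92) and Haus7 (0.90), and after Mt1 those most like Mt2 were Haus7 (0.91) and Lims2 (0.88). None of the 22 further glucocorticoid targets was among these genes. With 22 of 15922 genes on that list and 3 genes taken per member, a match was unlikely in any case, so nothing follows from this.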

How the data were processed

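The 10 libraries were polyadenylated RNA prepared with a stranded kit. The authors aligned reads to mm10 with HISAT2, and the submitters' processing notes name bcl2fastq 2.17, cutadapt 1.4.2 and featureCounts 1.4.4. The annotation release and the use of strand are not given in the sources used here. The deposited values are raw counts per Ensembl gene, not normalized. The 10 columns of the combined table equalled the 10 single tables. A table of 10 columns of log2 values was not used.

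Genes were kept by filterByExpr (edgeR 4.0.16, minimum count 10, minimum total 15), which left 15922. Counts were TMM-scaled, passed through voom (prior count 0.5), and limma 3.58.1 (R 4.3.3) fitted the group as the only term. Benjamini-Hochberg adjustment covered every gene tested (threshold 0.05). For the 7 genes a 2-sided exact permutation test over 252 assignments was added (scipy 1.17.1). Gene positions and transcript lengths came from GENCODE M21 on GRCm38, the assembly mm10 names, which held 37693 of 39017 identifiers.

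The 7 genes and the lists, taken from general knowledge of the field, were chosen with earlier results of these data known. Named in the text are the 7 genes, the 3 of each further list with the smallest p, any called gene, the 3 genes most like each member and the highest marker of each cell type. An allele that both groups carry and a gene that this rule names are not reported here. Chosen after their values were seen were Per1, Klf9, Hsp90ab1, Nr3c2, Nedd4l, Mtf1, Slc30a1 and the leukocyte genes that are near 0, with Cd79a. Alternatives were edgeR's quasi-likelihood test, DESeq2 1.42.0, library totals, RLE size factors, no filter, a mean of at least 20 TPM, sex as a covariate, male libraries only, female Glut1-KO libraries only, a replicate block, the number in the deposited names as a random block, and leaving out each library.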

Additional observations from a re-analysis of the deposited data

Results flagged for a closer look

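In 14 groups of 5 values, the 7 genes in each group of libraries, 0 had a library whose gap to its neighbour exceeded the limit of 0.71 of the group's range.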

How the results depend on the processing

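The count of genes called, 0 with limma, was 215 with DESeq2, 3 with sex as a covariate, 1 in male libraries only, 9 with the female Glut1-KO libraries alone, and 0 to 1 when single libraries were left out (1 without control replicate 3). Of the 7 genes only Sgk1 crossed the threshold, with DESeq2 (-1.32), and its log2 fold change lay between -1.44 and -0.94 over all alternatives, with limma and edgeR adjusted p-values from 0.223 to 0.626. Nr3c1 (0.20 to 0.65), Fkbp5 (0.52 to 0.79) and Zbtb16 (0.29 to 1.25) kept their direction throughout. Values near 0 changed sign. Tsc22d3 was 0.09 with the female Glut1-KO libraries alone, -0.23 with sex as a covariate and -0.14 to 0.08 without single libraries. Mt1 was -0.12 with the female Glut1-KO libraries alone, 0.22 with sex as a covariate and -0.18 to 0.22 without single libraries. Mt2 was 0.04 with sex as a covariate, 0.03 in male libraries only and -0.24 to 0.19 without single libraries. Fkbp5 and Zbtb16 fell under the filter of 20 TPM. Without single libraries the list medians ran from -0.18 (without control replicate 2) to 0.04 (without Glut1-KO replicate 5) for glucocorticoid targets, -0.14 to -0.05 for chaperones and cofactors, 0.08 to 0.23 for steroid metabolism, 0.03 to 0.16 for the genes around Sgk1, 0.02 to 0.15 for zinc handling and -0.41 to -0.23 for dissociation. The cause of these shifts was not tested. The replicate numbers did not pair the libraries (correlations of same-numbered libraries from -0.132 to 0.197), and with the replicate block 0 genes were called and Sgk1 had a log2 fold change of -1.25. The spread between libraries limits Mt1, Mt2 and Zbtb16, whose 14 to 68 counts add counting error.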

Other observations

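Markers of the other cell types that the fraction could hold were read as lists, each with its highest gene. All 5 club cell markers had a log2 fold change below 0 (median -0.67, and -1.46 with sex as a covariate), and Scgb1a1, which encodes the club cell secretory protein CC10, stood at 4889 ± 3156 CPM in the controls against 2382 ± 1593 CPM in libraries labelled KO (SD, n = 5 each, log2 fold change -1.04, SE 0.58). All 7 ciliated cell markers tested were below 0 (median -0.94, and -2.18 with sex as a covariate), with Tppp3 at 42 ± 49.4 and 17 ± 10.4 CPM (SD, n = 5 each), and all 10 endothelial markers were above 0 (median 0.64), with Vwf at 55.7 ± 23.7 and 78.4 ± 25.9 CPM (SD, n = 5 each). With sex as a covariate the endothelial median was 0.08, with 7 of the 10 above 0 and 3 below, and Vwf was at 0.42. Fibroblast markers had a median of -0.20, with Col3a1 at 67.7 ± 37.5 and 67 ± 49.8 CPM (SD, n = 5 each), but 0.56 with sex as a covariate. Alveolar type 1 markers had a median of 0.21, with Ager at 822 ± 313 and 1180 ± 527 CPM (SD, n = 5 each), but -0.26 with sex as a covariate. The epithelial list had a median of 0.05 (0.15 with sex as a covariate), with Sftpc, a surfactant protein of alveolar type 2 cells, at 20811 ± 10881 and 22519 ± 6551 CPM (SD, n = 5 each). Among leukocyte genes the macrophage gene Cd68 was highest, at 17.5 ± 1.49 and 21.2 ± 5.3 CPM (SD, n = 5 each). Single libraries moved these medians. The ciliated cell median was -0.46 without control replicate 5, -0.60 without Glut1-KO replicate 5 and -1.61 without control replicate 2. The club cell median was -0.32 without control replicate 3, -0.40 without Glut1-KO replicate 3 and -1.36 without Glut1-KO replicate 1. The endothelial median was 0.35 without control replicate 2 and 0.41 without Glut1-KO replicate 2. The alveolar type 1 median was -0.06 without control replicate 2, 0.09 without Glut1-KO replicate 1 and 0.35 without control replicate 5. The fibroblast median ran from -0.47 without control replicate 4 to 0.18 without Glut1-KO replicate 3, and the epithelial one from -0.12 without Glut1-KO replicate 4 to 0.21 without Glut1-KO replicate 2. Limma and edgeR called 0 genes of these lists. At an unadjusted p under 0.05 with limma there were 5 of 8 leukocyte and 1 of 10 endothelial genes, beside 7.68% of all genes. DESeq2 called 4 of 8 leukocyte genes, Ptprc, Itgax, Laptm5 and Coro1a, and 1 of 7 ciliated cell genes, Foxj1, beside 1.35% of all genes.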
